A study of Mus musculus with 19 samples.

Results

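The thymus library was set against the spleen library to describe how the lymphoid programmes of a primary and a secondary lymphoid organ differed. The 2 samples were chosen by the tissue in their titles, out of 19 samples of 19 mouse tissues sequenced in a study of genes specific to the kidney. Both samples were total RNA from C57BL/6J mice labelled as male, 8 weeks old and fed a chow diet. The sample labels named no genotype or agent for either and did not say whether animals were pooled. A column header in a second deposited set of FPKM values read WT_Spleen, and the thymus column was headed Thymus alone. Each tissue had 1 library, so no difference below has a replicate check and no p-value was computed.

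The thymus makes T cells. Precursors enter it from the marrow, rearrange the genes of the T cell receptor with the RAG recombinase in the cortex, pass through a stage with both coreceptors CD4 and CD8, and are selected on cortical and then medullary epithelial cells before they leave. The spleen makes few lymphocytes of its own: its white pulp holds mature B cells in follicles and mature T cells around arteries, and its red pulp holds macrophages that clear old red cells. In young mice the red pulp also forms new red cells.

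The thymus library held 16648697 reads assigned to genes and the spleen library 16165617. Levels are given as FPKM, the reads of a gene per kilobase of its length and per 1000000 assigned reads, with the same length for a gene in both libraries. A gene was tested when it reached 1 FPKM in either library, and was called higher in one tissue when its ratio passed 4-fold (a log2 ratio of 2) after 0.1 FPKM was added to both levels. Across the 17694 genes tested, the median log2 ratio of thymus to spleen was 0.11, and 9755 were above 0. Of the 17694, 2043 were called higher in thymus (11.5%) and 1709 higher in spleen (9.66%), the background shares for each list below. Thymus thus held 54.5% of all calls, a share that became 67.2% over protein-coding genes alone (1493 against 729 calls). It became 40.3% without genes that another organ expressed at 10-fold the level or more, and 86.7% on the values as deposited, in which the 2 libraries are not on one scale. Across genes the levels in both libraries had a Spearman correlation of 0.80, as a description of 1 pair of libraries, and 641 of the 1000 genes with the highest levels in thymus were also among the 1000 highest in spleen. Intervals given after a fold are at the 95% level by the exact binomial method and reflect counting error alone.

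**Figure D1:**
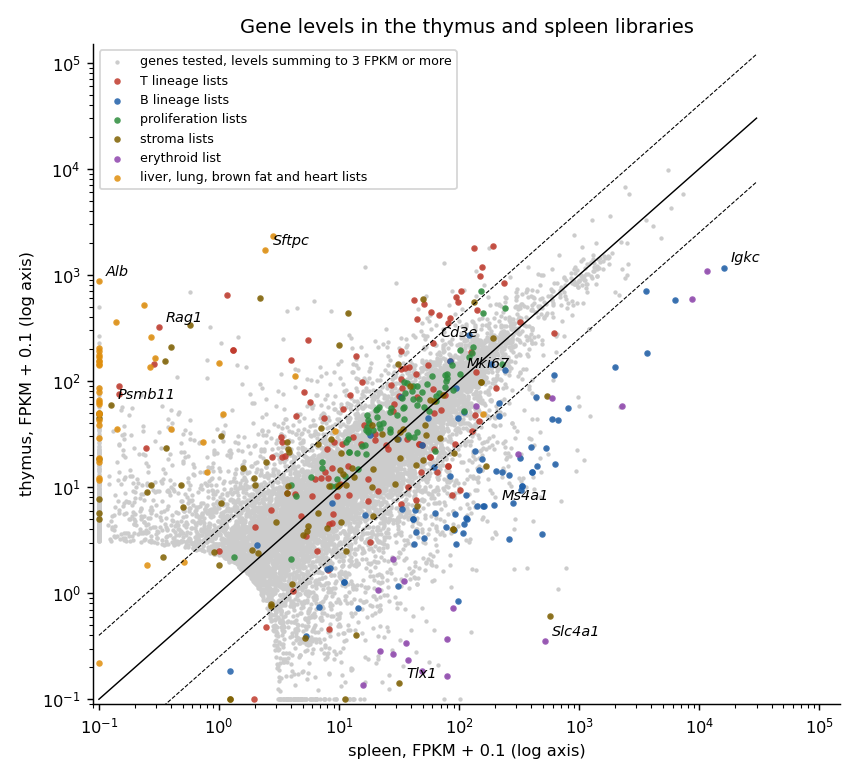
FPKM of each gene in spleen (x axis) and thymus (y axis), both with 0.1 added and on log axes; grey points are tested genes whose levels sum to 3 FPKM or more, and coloured points are members of gene lists. The solid line marks equal levels and the dashed lines 4-fold. T lineage genes lie mostly above the diagonal, and B lineage and erythroid genes mostly below it. Most genes of liver, lung, brown fat and heart stand far above it, but Napsa of the lung list lies below it.

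The thymus library also held RNA typical of other organs. The 14 hepatocyte genes examined summed to 1876 FPKM in thymus, which was 1.45% of their sum in the liver library, against 1.82 FPKM in spleen. Each of them stood between 1.27% and 2.15% of its liver level, with albumin (Alb) at 868 FPKM in thymus and 0 in spleen. The 10 lung epithelial genes summed to 4826 FPKM in thymus, 7.34% of the lung library, led by the club cell secretoglobin Scgb1a1 at 2337 FPKM and the surfactant protein gene Sftpc at 1714 FPKM. In spleen they summed to 168 FPKM, of which the protease gene Napsa made 157. The 9 genes of the brown adipocyte list summed to 1865 FPKM in thymus, 19.3% of the brown fat library, and to 0.348 FPKM in spleen. The thermogenic uncoupling protein gene Ucp1 was at 359 FPKM in thymus and 2541 FPKM in brown fat. Single members stood between 9.60% (Cox8b) and 108% (Cfd) of their brown fat level, and the 9 genes summed to 7626 FPKM in the white fat library. The list is thus not specific to brown fat: Adipoq, Cidec and Cfd were highest in white fat, and Cfd alone was at 520 FPKM in thymus. Heart muscle genes summed to 255 FPKM in thymus (0.597% of the heart library). Among them Myl7, a myosin light chain of the atrium, was at 48.4 FPKM and Myl2, its ventricular counterpart, at 0.120 FPKM. A set of 10 genes of exocrine pancreas was near 0, summing to 3.78 FPKM in thymus and 0.378 FPKM in spleen. This set left out Cela1. The list of 11 with Cela1 summed to 9.05 FPKM in thymus and 33.4 FPKM in spleen, with 2 genes tested and 1 called each way. In all, 960 of the 2043 genes called higher in thymus (47.0%) stood at least 10-fold higher in an organ other than thymus, spleen or bone, against 104 of the 1709 genes called higher in spleen (6.09%) and 2754 of all 17694 genes tested (15.6%). Rag1 in turn was at 27.4 FPKM in the heart library and 8.17 FPKM in the parathyroid library. The part of these organs in the counts below was not tested beyond leaving such genes out.

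**Figure D2:**
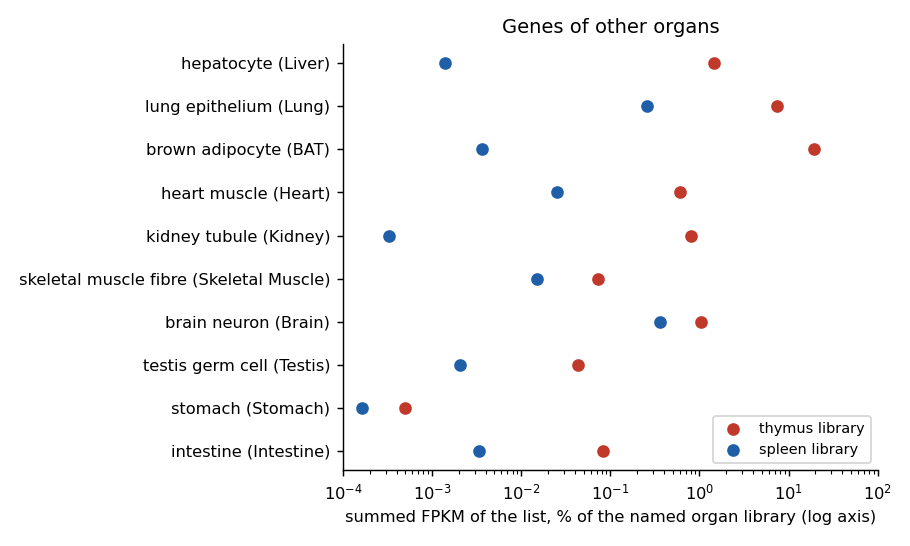
Summed FPKM of genes typical of an organ in the thymus and spleen libraries, as a percentage of the sum in that organ's own library (x axis, log scale; y axis, gene list with the library of the organ). The thymus library reached 19.3% for the brown adipocyte list, 7.34% for lung epithelium and 1.45% for hepatocyte genes, each above the spleen library. The brown adipocyte list also holds genes that were highest in white fat.

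The libraries also came from separate deposited tables, thymus among 13 libraries given as FPKM and spleen among 6 given as counts. Of 27936 genes at 1 FPKM or more in any library, 331 stood higher in all 6 libraries of the count table than in all 13 of the FPKM table, and 297 of these were pseudogenes. They made up 288 of the 1709 genes called higher in spleen, where tissue and table cannot be told apart, and no list member below was among them. Of all 668 processed pseudogenes tested, 380 were called higher in spleen and 36 in thymus. The part of the tables in calls outside the 331 genes was not tested. The T zone chemokine genes Ccl21a and Ccl19, which lie in a cluster of near-identical copies, had at most 1 read in any of the 13 libraries. Their lack of reads in thymus is therefore given no direction here. The calling rule still counted Ccl21a as higher in spleen, so the main counts of its lists are also given without it.

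The labels were checked against 3 marker genes, each of which was higher in the tissue it marks. Rag1, the catalytic subunit of the recombinase that assembles antigen receptor genes (chromosome 2, 101638282 to 101649501, minus strand, in the coordinates of the deposited table, GRCm38), was at 323 FPKM in thymus (35481 reads) and 0.215 FPKM in spleen (23 reads). Cd3e, a signalling chain of the T cell receptor complex (chromosome 9, 44998740 to 45009627, minus strand), was at 229 FPKM in thymus (4689 reads) and 60.4 FPKM in spleen (1201 reads). Ms4a1, which encodes the B cell antigen CD20 (chromosome 19, 11249675 to 11266241, minus strand), was at 6.66 FPKM in thymus (320 reads) and 195 FPKM in spleen (9109 reads). Between these libraries Rag1 was thus nearly private to thymus, Cd3e was present in both tissues and Ms4a1 was largely a spleen gene. Their folds were 1498 for Rag1 (998 to 2363) and 3.79 for Cd3e (3.56 to 4.04) in favour of thymus, and 29.3 for Ms4a1 (26.2 to 32.9) in favour of spleen. In bulk tissue, fewer cells of a type and less RNA per cell cannot be told apart, which applies to every gene below.

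Of 12 genes of antigen receptor recombination tested, 6 were called higher in thymus (50%, against 11.5% of all genes) and none in spleen. Their median log2 ratio was 2.37. Rag2, the partner subunit of Rag1, was at 75.6 FPKM in thymus and 0.0469 FPKM in spleen (3322 and 2 reads). Dntt, the terminal transferase that adds untemplated bases at the joints, was at 644 FPKM in thymus and 1.06 FPKM in spleen. Rag2 was thus below the floor of 3 reads in spleen, and its fold of 1613 has an interval of 446 to 13323, whereas Dntt had 36 reads there. The ligase of end joining, Lig4, was at 26.4 against 3.26 FPKM, and Xrcc6, which encodes the DNA end binding protein Ku70, at 387 against 44.9 FPKM. Its partner Ku80 (Xrcc5) had similar levels in both libraries, 15.8 and 11.8 FPKM. The catalytic kinase Prkdc was lower in thymus without a call, at 4.41 against 8.08 FPKM. Hmgb1, a chromatin protein that assists the recombinase, was at 1178 FPKM in thymus and 154 FPKM in spleen, but has near-identical pseudogenes that could share its reads.

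Of 12 genes of the T cell receptor and its CD3 chains, 10 were called higher in thymus (83.3%, against 11.5% of all genes). None was called in spleen, and the median log2 ratio was 2.91. The beta chain constant genes Trbc1 and Trbc2 were at 1807 and 1888 FPKM in thymus, ranks 18 and 16 of the genes tested, and at 134 and 191 FPKM in spleen. The alpha chain constant gene Trac was at 467 FPKM in thymus and 142 FPKM in spleen. With 3.29-fold (3.11 to 3.49) Trac did not pass 4-fold, nor did Cd3e. The other CD3 chains did: Cd3d was at 391 against 84.2 FPKM, Cd3g at 417 against 67.5 FPKM and the zeta chain gene Cd247 at 191 against 32.4 FPKM. Ptcra, the surrogate alpha chain that pairs with a new beta chain before the alpha locus is rearranged, was at 23.2 FPKM in thymus (496 reads) and 0.145 FPKM in spleen (3 reads), a fold of 161 (54.6 to 781). Of the constant genes of the gamma and delta receptor, Trdc was at 29.8 against 3.19 FPKM and Tcrg-C1 at 46.7 against 4.28 FPKM. Tcrg-C4 was at 18.9 against 3.27 FPKM, a fold of 5.79 (4.30 to 7.92).

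The promoters of Rag1 and Ptcra are shown because both genes were strong in thymus with 23 reads or fewer in spleen, and both promoters hold E-boxes, the sites that E proteins can bind. Each sequence is the 250 bases before the start of transcription in RefSeq (GRCm38.p6), read 5′ to 3′ on the strand of the gene, with matches to CAGCTG or CAGGTG on either strand in capitals. Rag1 covers chr2:101649533-101649782 on the minus strand, and Ptcra covers chr17:46763713-46763962 on the minus strand.
Rag1: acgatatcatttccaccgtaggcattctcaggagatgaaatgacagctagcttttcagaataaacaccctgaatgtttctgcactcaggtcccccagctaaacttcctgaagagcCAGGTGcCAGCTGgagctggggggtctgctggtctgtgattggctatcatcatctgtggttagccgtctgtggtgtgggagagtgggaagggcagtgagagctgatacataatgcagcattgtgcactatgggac
Ptcra: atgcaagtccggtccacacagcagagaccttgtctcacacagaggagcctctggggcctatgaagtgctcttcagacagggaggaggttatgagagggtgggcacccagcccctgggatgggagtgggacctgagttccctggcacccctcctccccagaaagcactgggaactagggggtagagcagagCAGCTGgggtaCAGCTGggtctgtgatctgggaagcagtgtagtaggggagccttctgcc
Rag1 had 1 match to each of the letters and Ptcra had 2 matches to CAGCTG, which reads the same on both strands. Promoters were found for 84 of the 121 T lineage genes. CAGCTG occurred in 22 of their 125 promoters (17.6%) against 4271 of all 32851 promoters of this length, and CAGGTG in 25.6% against 17.2%. A match describes the letters and does not show a site in use.

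Coreceptors and signalling proteins of T cells were higher in thymus in all but 1 case, with a median log2 ratio of 1.70. Of 20 tested, 8 were called in thymus (40%, against 11.5% of all genes) and none in spleen. Cd4 was at 557 FPKM in thymus and 98.0 FPKM in spleen, and the 2 chains of CD8, Cd8a and Cd8b1, at 535 and 578 FPKM against 51.0 and 42.2 FPKM. The fold was 5.68 for Cd4 (5.42 to 5.95) and 10.5 for Cd8a (10.04 to 10.96). The ratio of Cd8a to Cd4 was accordingly 0.962 in thymus and 0.521 in spleen. The receptor-proximal kinase Lck was at 967 against 150 FPKM and the adaptor Lat at 624 against 94.9 FPKM. The largest fold in the list was that of the adaptor Trat1 at 15.9 (13.8 to 18.3). Cd8b1 followed at 13.7 (12.8 to 14.6), and then Themis, needed for positive selection, at 12.7 (11.8 to 13.8). The adhesion molecule Cd2 was the exception, with 122 FPKM in thymus and 138 FPKM in spleen.

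Of 17 transcription factors of the T lineage, 5 were called higher in thymus (29.4%, against 11.5% of all genes) and none in spleen. Their median log2 ratio was 1.09. Those called included Tcf7, which encodes the commitment factor TCF-1 (708 against 104 FPKM), the chromatin organiser Satb1 (443 against 58.5 FPKM), Bcl11b (97.5 against 15.5 FPKM) and Gata3 (53.8 against 10.8 FPKM). Runx3, a factor of CD8 cells and of cytotoxic cells, was lower in thymus without a call, at 13.7 against 48.3 FPKM. Gata3 was highest in the skin library of all 19.

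Markers of immature thymocytes were mixed. Of 20 tested, 7 were called higher in thymus and 2 higher in spleen (35% and 10%, against 11.5% and 9.66% of all genes). Their median log2 ratio was 1.02. Arpp21, a gene of cells with both coreceptors, was at 146 FPKM in thymus and 0.186 FPKM in spleen (4848 and 6 reads). Ccr9, the receptor that guides precursors to CCL25, was at 159 against 3.88 FPKM, and Endou, an endoribonuclease gene, at 244 against 5.46 FPKM. The noncoding gene Dgkeos had 1935 reads in thymus and 1 read in spleen, and lies opposite another gene, so that its reads are uncertain without strand. Cd38 and Cd44 were the members called higher in spleen, at 101 and 80.9 FPKM there against 9.35 and 15.5 FPKM in thymus. Cd44 is also carried by mature lymphocytes and myeloid cells, and Cd38 by B cells.

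Genes of mature T cells ran the other way. Of 24 tested, none was called higher in thymus and 7 were called higher in spleen (29.2%, against 9.66% of all genes). The median log2 ratio was -1.54, with 22 of the 24 below 0. S1pr1, the receptor that lets T cells leave the thymus, was at 13.8 FPKM in thymus and 64.9 FPKM in spleen. Klf2, the factor that drives S1pr1, was at 34.0 against 128 FPKM and fell short of 4-fold. The effector regulator Eomes was at 0.357 against 8.09 FPKM. Gzmk, a granzyme of effector cells, had 0 reads in thymus and 32 in spleen, at least 11.0-fold higher in spleen against a floor of 3 reads. Foxp3, the regulator of suppressive T cells, was at 0.940 against 4.01 FPKM without a call. Ikzf2 and Pdcd1 were above 0, with Ikzf2, which encodes Helios, a factor of regulatory T cells, at 38.4 FPKM in thymus and 16.2 FPKM in spleen. Some members, such as Eomes and Tbx21, are also expressed by natural killer cells. The natural killer list was higher in spleen in 14 of 15 genes, with a median log2 ratio of -1.81. Of the 15, 6 were called in spleen (40%).

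Over all 120 T lineage genes tested, 37 were called higher in thymus and 11 in spleen (30.8% and 9.17%, against 11.5% and 9.66% of all genes).

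All T cell receptor genes together took 0.401% of the thymus reads and 0.0472% of the spleen reads, an 8.49-fold difference (8.30 to 8.70). Trbc1 and Trbc2 together stood 11.3-fold higher in thymus (10.9 to 11.7) and the V segments of the beta chain 10.02-fold (9.41 to 10.7). The alpha chain was less far apart, at 3.36-fold for its V segments (3.02 to 3.75), 3.22-fold for its J segments (2.73 to 3.82) and 3.29-fold for Trac. The ratio of Trbc1 to Trac by FPKM was 3.87 in thymus and 0.945 in spleen. Relative to the alpha chain, beta chain transcripts were thus more abundant in thymus than in spleen. Among beta V segments with at least 50 reads in the 2 libraries, 18 in number, single folds ranged from 5.70 to 27.1 with a median of 9.84. The 11 alpha V segments with as many reads ranged from 2.45 to 12.6 with a median of 3.59, so that single segments of both chains overlapped.

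Within the alpha locus the J segments differed by position. Traj58 to Traj61, which lie nearest to the V segments and are the first to be used or transcribed from the unrearranged locus, had 81 reads in thymus and 4 in spleen, a fold of 19.7 (7.39 to 73.9). Traj1 to Traj19, at the end next to the constant gene, had 379 and 133 reads, a fold of 2.77 (2.27 to 3.40). The blocks between them lay near the latter, with 2.97-fold for Traj20 to Traj39 and 3.56-fold for Traj40 to Traj57 (1.85 to 7.41). The intervals of the V-proximal block and of the block next to the constant gene did not overlap.

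**Figure D3:**
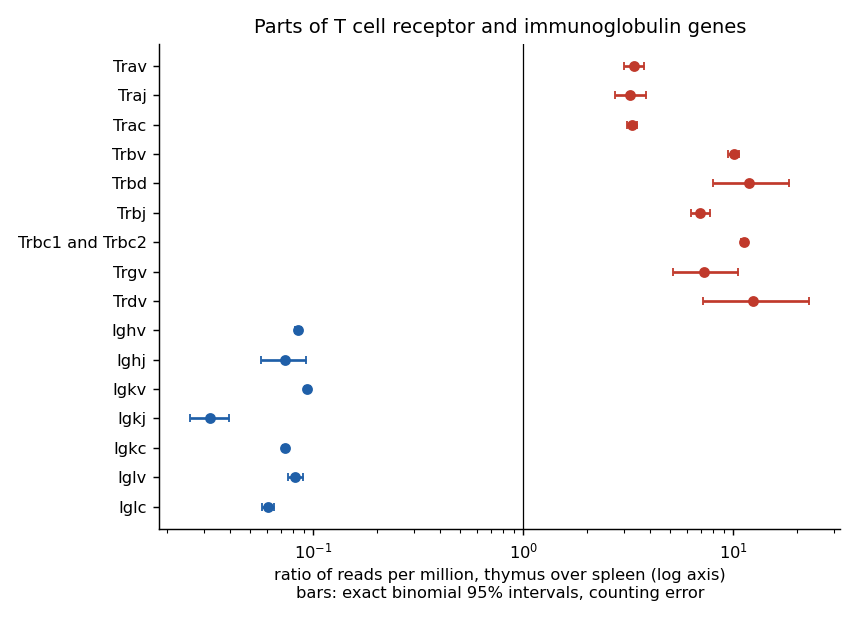
Ratio of thymus to spleen, as a share of assigned reads, for groups of T cell receptor (red) and immunoglobulin (blue) gene parts (x axis, log scale; y axis, group), with exact binomial 95% intervals for counting error as bars. Beta chain groups lie near 7 to 12, alpha chain groups near 3 and immunoglobulin groups below 0.1.

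The Notch pathway, in which the receptor Notch1 sets T cell fate in the thymus and Notch2 directs marginal zone B cells in the spleen, was described by 19 genes. Of these, 2 were called higher in thymus and 3 in spleen (10.5% and 15.8%, against 11.5% and 9.66% of all genes), with a median log2 ratio of 0.03 that became -0.04 with size factor scaling. Notch1 was at 70.7 FPKM in thymus and 44.8 FPKM in spleen, and Notch2 at 6.89 against 33.0 FPKM. The ratio of Notch1 to Notch2 was 10.3 in thymus and 1.36 in spleen. The ligand Dll1 was at 7.39 against 43.8 FPKM, and Dtx1, a target of the pathway, at 8.25 against 87.7 FPKM, so that with Notch2 these were the 3 called higher in spleen. Dll4, the ligand of cortical epithelium, was at 8.72 FPKM in thymus and 3.57 FPKM in spleen without a call. Jag2 and Hey1 were the 2 called higher in thymus, at 44.5 and 19.5 FPKM against 7.34 and 3.46 FPKM.

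B lineage genes were higher in spleen. Of 78 tested, 59 were called higher in spleen (75.6%, against 9.66% of all genes), and the 3 called higher in thymus were Rag1, Rag2 and Dntt, which early B cells also use. The receptor and its coreceptors gave 20 of 21 calls and a median log2 ratio of -3.96. Cd79a, the signalling chain of the B cell receptor, was at 15.5 FPKM in thymus and 444 FPKM in spleen. Cr2, the complement receptor CD21 of follicular dendritic cells and mature B cells, was at 3.17 against 260 FPKM. Folds were 28.6 for Cd79a (25.8 to 31.8) and 81.9 for Cr2 (67.8 to 99.8). Cd81, a tetraspanin that many cell types make, was the member without a call, at 146 against 184 FPKM.

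Surface markers of B cells gave 16 of 18 calls (median log2 ratio -4.36), among them the low-affinity IgE receptor gene Fcer2a at 9.38 against 327 FPKM and the follicle homing receptor Cxcr5 at 3.83 against 90.6 FPKM. Cd40 lay on the edge of the threshold with a fold of 4.03 (3.53 to 4.62). Transcription factors gave 12 of 18 calls (median log2 ratio -2.52). Pax5, the commitment factor of B cells, was at 7.03 FPKM in thymus and 279 FPKM in spleen, a fold of 39.7 (33.8 to 47.0). The coactivator Pou2af1 was at 6.57 against 160 FPKM. Of the factors without a call, Tcf3 was at 85.7 against 94.9 FPKM, Foxo1 at 5.40 against 16.3 FPKM and Bcl6 at 30.6 against 18.1 FPKM.

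The promoters of Cd79a and Cr2 are shown as the counterpart for spleen, again with CAGCTG and CAGGTG on either strand in capitals, 250 bases before the start of transcription in RefSeq (GRCm38.p6). Cd79a covers chr7:24897247-24897496 on the plus strand, and Cr2 covers chr1:195176720-195176969 on the minus strand.
Cd79a: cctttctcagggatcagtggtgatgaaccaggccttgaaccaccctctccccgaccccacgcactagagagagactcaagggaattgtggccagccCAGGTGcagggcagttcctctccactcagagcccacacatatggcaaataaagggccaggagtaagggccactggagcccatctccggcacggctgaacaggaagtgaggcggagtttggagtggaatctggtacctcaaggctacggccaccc
Cr2: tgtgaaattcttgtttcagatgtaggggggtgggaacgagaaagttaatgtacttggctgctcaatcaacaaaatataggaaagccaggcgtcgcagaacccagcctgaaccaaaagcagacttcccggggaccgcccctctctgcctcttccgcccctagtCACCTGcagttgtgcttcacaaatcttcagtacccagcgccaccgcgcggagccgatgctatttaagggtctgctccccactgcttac
Each held 1 match to CAGGTG, on the other strand in Cr2. Of the 80 B lineage genes, Rag1, Rag2 and Dntt were left out of this set and kept in the T lineage set. Promoters were found for 50 of the rest, and CAGGTG occurred in 29.2% of their 65 promoters against 17.2% of all. CAGCTG occurred in 7 of the 65 (10.8%), beside 17.6% of the T lineage promoters.

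Immunoglobulin genes took 3.73% of the spleen reads and 0.283% of the thymus reads, a 13.2-fold difference (13.1 to 13.3). The kappa constant gene Igkc was the gene with the highest level in spleen, at 15942 FPKM against 1166 FPKM in thymus. Ighm, the constant gene of IgM, was at 6323 against 580 FPKM and Ighd, that of IgD on mature naive B cells, at 627 against 16.3 FPKM. The ratio of Ighm to Ighd was 10.1 in spleen and 35.6 in thymus. Switched isotypes were not equally far apart: Ighg3 and Ighg1 stood 141-fold (116 to 173) and 131-fold (86.1 to 209) higher in spleen, Igha 19.97-fold (19.4 to 20.5) and Ighg2b at 440 against 70.6 FPKM. The joining chain of secreted antibody, Jchain, was at 1996 FPKM in spleen and 134 FPKM in thymus. In all 14 of 17 genes of plasma cells and switched immunoglobulin were called higher in spleen (median log2 ratio -3.18). Of 8 early B cell genes tested, 3 were called higher in thymus and 1 in spleen (37.5% and 12.5%, against 11.5% and 9.66% of all genes). The 3 were Rag1, Rag2 and Dntt, and the median log2 ratio was 0.77. The call for spleen was Vpreb3, at 1.06 FPKM in thymus and 31.1 FPKM in spleen. The surrogate light chain gene Igll1 had 3 reads in thymus and 0 in spleen, and Vpreb1 had 27 and 19.

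**Figure D4:**
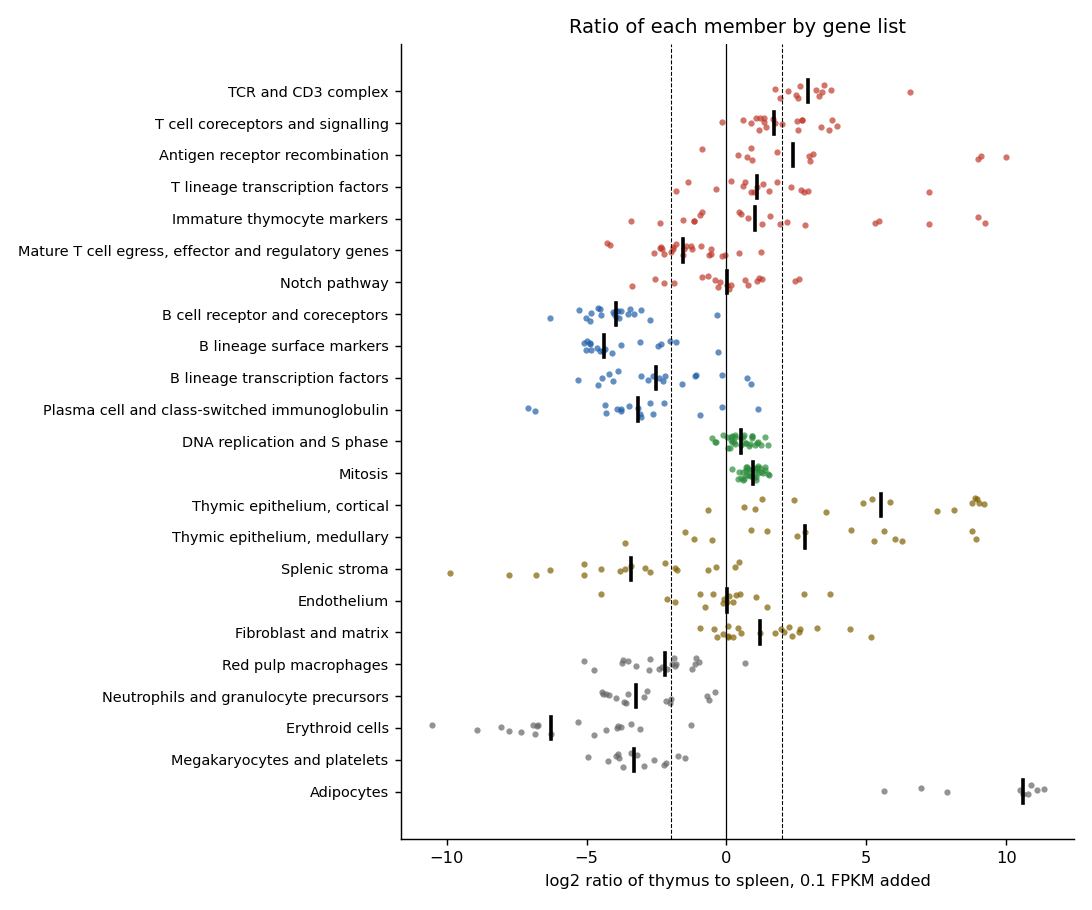
Log2 ratio of thymus to spleen (x axis, 0.1 FPKM added) for each tested member of 23 gene lists (y axis); points are genes, black bars are list medians and dashed lines mark 4-fold. Medians ran from -6.26 for erythroid genes to 10.6 for adipocyte genes, with the S phase and mitosis lists at 0.53 and 0.95.

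Proliferation genes were somewhat higher in thymus, with small differences. Of 32 genes of mitosis, all 32 had a log2 ratio above 0, beside 9755 of all 17694 genes tested. None passed 4-fold in either direction, and the median was 0.95 beside 0.11 for all genes. Top2a, the topoisomerase that separates sister chromosomes, was at 436 FPKM in thymus and 157 FPKM in spleen, a fold of 2.79 (2.69 to 2.89). Ccnb1, the mitotic cyclin, was at 77.3 against 35.01 FPKM. Mki67, the common marker of cycling cells, was nearly equal at 117 and 101 FPKM, a fold of 1.16 (1.13 to 1.19). Genes of S phase had a median log2 ratio of 0.53 with 28 of 32 above 0, which became 26 with size factor scaling, and none was called. The replication clamp Pcna was at 486 against 242 FPKM, while the helicase subunit Mcm3 was at 65.0 against 64.0 FPKM. In the whole series 22 of the 32 mitotic genes were highest in bone, which holds the marrow.

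The G1 phase genes held the single call of the 83 proliferation genes (1.20%, against 11.5% of all genes). Ccnd3, the D cyclin that pre-T cells need to divide, was at 698 FPKM in thymus and 152 FPKM in spleen, a fold of 4.58 (4.40 to 4.76). Its relative Ccnd2 was lower in thymus, at 51.9 against 109 FPKM, and Ccnd1 too, at 21.8 against 62.4 FPKM. The ratio of Ccnd3 to Ccnd2 was 13.5 in thymus and 1.40 in spleen.

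The promoter of Ccnb2, a mitotic cyclin gene at 69.2 FPKM in thymus and 33.6 FPKM in spleen, is shown for the CCAAT letters common in promoters of this list. It covers chr9:70421555-70421804 on the minus strand (RefSeq, GRCm38.p6), and CCAAT on either strand is in capitals.
Ccnb2: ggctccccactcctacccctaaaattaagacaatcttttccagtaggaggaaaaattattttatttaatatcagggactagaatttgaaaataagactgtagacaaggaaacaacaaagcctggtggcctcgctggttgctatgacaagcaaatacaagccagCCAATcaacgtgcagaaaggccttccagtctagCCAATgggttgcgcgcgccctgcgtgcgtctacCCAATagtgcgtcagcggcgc
Ccnb2 held 3 matches. CCAAT occurred in 22 of 28 promoters (78.6%) of the 26 mitotic genes found, against 33.9% of all promoters.

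Genes of lymphocyte survival and death differed little, with a median log2 ratio of -0.10. Of 22, none was called higher in thymus and 1 in spleen (0% and 4.55%, against 11.5% and 9.66% of all genes). The survival gene of cells with both coreceptors, Bcl2l1, was at 118 against 36.5 FPKM, and Bcl2, the survival gene of mature lymphocytes, at 10.3 against 28.1 FPKM. The ratio of Bcl2l1 to Bcl2 was therefore 11.5 in thymus and 1.30 in spleen. The death receptor Fas was at 74.3 FPKM in thymus and 19.3 FPKM in spleen, just under 4-fold. The one call was Pmaip1, a promoter of cell death, at 3.70 against 15.5 FPKM.

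**Figure D5:**
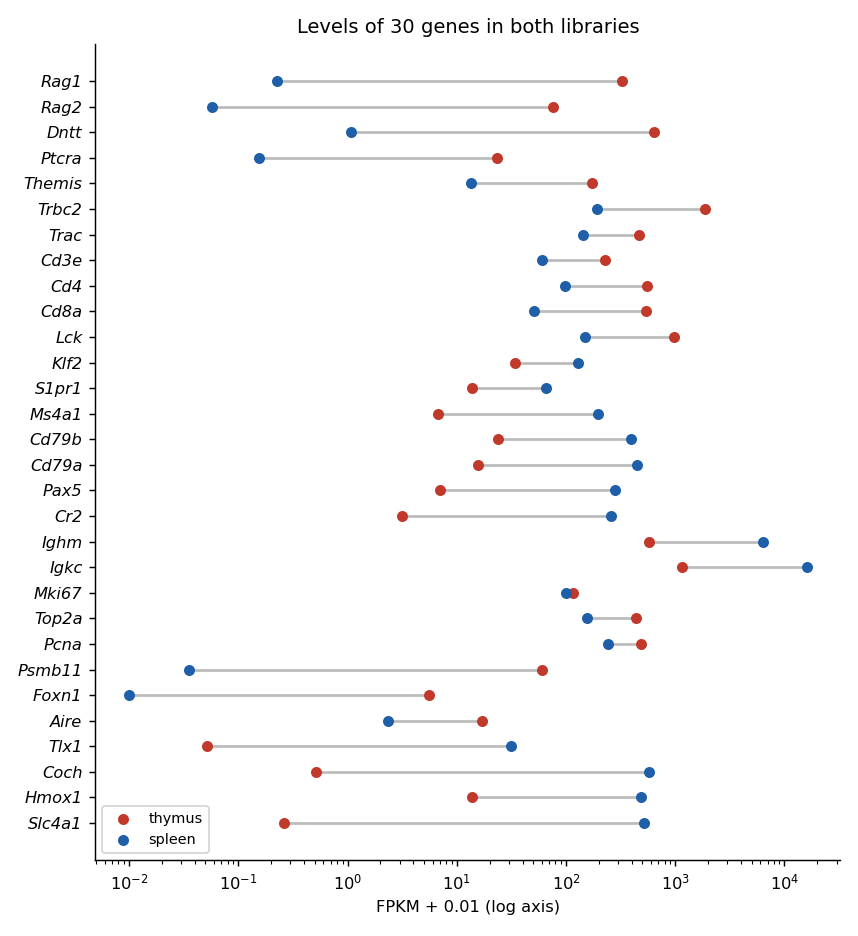
FPKM (x axis, 0.01 added, log scale) of 30 genes (y axis) in thymus (red) and spleen (blue), 1 library each. Rag1, Rag2, Psmb11 and Foxn1 are far to the right in thymus, Tlx1, Coch and Slc4a1 in spleen, and Mki67 has nearly the same level in both.

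The stroma of each organ was described by lists of its own. Of 16 genes of cortical thymic epithelium, 12 were called higher in thymus and none in spleen, with a median log2 ratio of 5.51. Psmb11, the proteasome subunit made by cortical epithelial cells, was at 59.7 FPKM in thymus (2395 reads) and 0.0257 FPKM in spleen (1 read). Foxn1, the factor that makes thymic epithelium, was at 5.59 FPKM (299 reads) against 0 reads, at least 96.8-fold higher. Prss16, a protease of the cortex, was at 611 against 2.09 FPKM and the chemokine Ccl25 at 432 against 11.7 FPKM. Pax1, a factor of the pharyngeal pouches, had 1542 reads in thymus and 0 in spleen, at least 499-fold higher. Tbata, a gene of thymic epithelium and testis, was at 340 against 0.470 FPKM. Keratin genes Krt8 and Krt18, at 154 and 210 FPKM, were highest in colon and stomach among the 19 tissues and are also made by lung epithelium, so their source in the thymus library was not tested.

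Of 15 genes of medullary epithelium, 9 were called higher in thymus and 1 in spleen (median log2 ratio 2.80). The call for spleen was Ccl21a, and without it, a choice made after the values were seen, 9 of 14 were called higher in thymus and none in spleen (median log2 ratio 3.62). Aire, which lets medullary cells display proteins of other tissues, was at 17.03 FPKM in thymus and 2.36 FPKM in spleen, a fold of 7.22 (5.56 to 9.50). Fezf2, a second such regulator, had 176 reads in thymus and 0 in spleen, at least 57.0-fold higher. The basal keratin genes Krt5 and Krt17 had 1617 and 1255 reads in thymus and 0 in spleen, and were highest in the skin library. Without genes that another organ held at 10-fold or more, 9 genes of the list were left, with 4 called higher in thymus, Ccl21a in spleen and a median of 0.89. Of the cortical list 14 genes were left, with 10 called higher in thymus and a median of 5.51.

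Stroma of the spleen ran the other way, with 13 of 19 genes called higher in spleen, none in thymus and a median log2 ratio of -3.40. Some members, such as Cr2 and Fcer2a, are B cell genes as well. Without Ccl21a, which is given no direction, 12 of 18 were called higher in spleen (median log2 ratio -3.16). Tlx1, the homeobox gene without which no spleen forms, was at 31.3 FPKM in spleen (726 reads) and 0.0419 FPKM in thymus (1 read). Nkx2-3, which patterns splenic vessels and the marginal zone, had 377 reads in spleen and 0 in thymus, at least 129-fold higher. Coch, which encodes cochlin, a secreted protein of follicular dendritic cells in the spleen, was at 572 against 0.503 FPKM, a fold of 1136 (664 to 2135). Madcam1, the addressin of the marginal sinus, was at 13.8 against 0.303 FPKM. Cxcl13, the chemokine of B cell follicles, was at 167 against 15.8 FPKM. Stab2, a scavenger receptor of sinus endothelium, was at 88.0 against 3.89 FPKM.

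Stromal cells common to organs were closer to equal. Of 17 endothelial genes, 2 were called each way (11.8% each, against 11.5% of all genes for thymus and 9.66% for spleen). Their median log2 ratio was 0.02, which was -0.05 with size factor scaling. The pan-endothelial adhesion molecule Pecam1 was at 74.1 and 72.9 FPKM. Emcn and Lyve1 were the 2 called higher in thymus, Lyve1 being a lymphatic marker at 6.44 against 0.402 FPKM. Plvap and Stab2 were called higher in spleen. Of 21 genes of fibroblasts and matrix (median log2 ratio 1.21), 8 were called higher in thymus (38.1%) and none in spleen. They included the proteoglycan gene Lum at 8.83 against 0.152 FPKM and the calcification inhibitor Mgp at 216 against 9.94 FPKM, whereas the collagen gene Col1a1 was equal at 33.2 and 32.3 FPKM. Only 9 of the 21 were left without genes that another organ held at 10-fold or more, with 4 calls. Over all 95 stroma genes tested, 33 were called higher in thymus and 14 in spleen (34.7% and 14.7%, against 11.5% and 9.66% of all genes). The 14 became 13 without Ccl21a, and the 33 became 20 without genes that another organ held at 10-fold or more.

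Blood-forming and myeloid cells marked the spleen. Of 19 erythroid genes tested, 18 were called higher in spleen and the 19th, the transferrin receptor Tfrc, was at 57.9 against 139 FPKM. Their median log2 ratio was -6.26, and all 19 were highest in bone. Slc4a1, the anion exchanger of the red cell membrane, was at 519 FPKM in spleen (10018 reads) and 0.252 FPKM in thymus (5 reads), a fold of 2063 (884 to 6356). Klf1, the regulator of red cell genes, was at 36.3 against 0.236 FPKM. Globin genes were less far apart than these precursors' genes, at 1.24% of the spleen reads and 0.0930% of the thymus reads, a 13.3-fold difference (13.1 to 13.6).

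The promoter of Alas2, the heme synthesis gene of red cell precursors at 310 FPKM in spleen and 20.4 FPKM in thymus, is shown for the GATA letters AGATAA, which GATA1 can bind. It covers chrX:150547167-150547416 on the plus strand (RefSeq, GRCm38.p6), with the match in capitals on the other strand as TTATCT.
Alas2: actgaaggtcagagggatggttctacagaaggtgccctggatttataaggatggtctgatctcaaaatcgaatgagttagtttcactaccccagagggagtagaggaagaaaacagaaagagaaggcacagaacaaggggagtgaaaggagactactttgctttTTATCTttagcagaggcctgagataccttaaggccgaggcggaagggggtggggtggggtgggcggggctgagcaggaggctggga
AGATAA occurred in 5 of 17 promoters (29.4%) of the 16 erythroid genes found, against 9.99% of all promoters.

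Red pulp macrophages gave 11 of 20 calls for spleen and none for thymus (median log2 ratio -2.21). Hmox1, the oxygenase that degrades heme, was at 483 FPKM in spleen and 13.9 FPKM in thymus, a fold of 34.7 (30.8 to 39.3). Slc40a1, the iron exporter ferroportin, was at 380 against 28.9 FPKM, and Spic, the factor that makes these macrophages, at 90.8 against 7.78 FPKM. Complement genes C1qa, C1qb and C1qc, which macrophages of many tissues make, were within 4-fold, for example C1qa at 224 against 103 FPKM. Neutrophil genes gave 12 of 16 calls (median log2 ratio -3.23) and megakaryocyte genes 12 of 14 (median log2 ratio -3.30), all for spleen. Of 19 dendritic cell genes, 4 were called for spleen and 2 for thymus (21.1% and 10.5%, against 9.66% and 11.5% of all genes). The chemokine gene Ccl17 and the receptor Ccr9, which is also in the list of immature thymocytes, were the 2 for thymus. Clec4a4, the marker DCIR2 of a splenic subset, was at 8.13 FPKM in spleen and 0.0774 FPKM in thymus.

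Chemokines and their receptors showed opposite pairs. Of 29 tested, 5 were called higher in thymus and 7 in spleen (17.2% and 24.1%, against 11.5% and 9.66% of all genes). Without Ccl21a, 6 were called higher in spleen. Ccl25 and its receptor Ccr9 were both higher in thymus, as was Ccr4, a receptor of cells entering the medulla, at 19.0 against 2.67 FPKM. Cxcl13 and its receptor Cxcr5 were both higher in spleen, as was Ccr6, at 45.3 against 3.29 FPKM. Cxcl12 was the exception to pairing, at 97.1 against 152 FPKM with its receptor Cxcr4 at 179 against 65.6 FPKM, neither called.

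Ranks within each library do not depend on the scale between them. Among the 17694 genes tested, the median rank of the receptor and CD3 genes was 501 in thymus and 3511 in spleen. The B cell receptor list had a median rank of 7773 in thymus and 346 in spleen. The mitotic list moved from a median rank of 2740.5 in thymus to 5129.5 in spleen, and the erythroid list from 16590 to 1687. Rag1 was at rank 292 in thymus and 16631 in spleen, and Slc4a1 at rank 17104 in thymus and 162 in spleen. Cd3e was at rank 441 in thymus and 2390 in spleen, and Ms4a1 at 10524 and 495.

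By size of ratio alone, the 15 leading genes in thymus, among protein-coding genes reaching 10 FPKM there, were all genes that another organ held at a higher level, headed by Alb, Pck1 and Ucp1. Those of spleen were headed by Slc4a1 and also included Coch, Rhd, Car1, Rhag, Tlx1 and Kel, of which all but Coch and Tlx1 are genes of red cells. They also held a copy of Ccl21a on a scaffold outside the chromosomes, with 661 reads in spleen and 0 in thymus. That copy was among the genes higher in all 6 libraries of the count table. The Ccl21a of the gene lists is the copy on chromosome 4, with 16 reads in spleen. When genes that any other organ held at a higher level were left out of the thymus ranking, a choice made after the values were seen, the first 10 were Rag1, Tbata, Dntt, Rag2, Arpp21, Pax1, Psmb11, Tdrd5, Prss16 and Dact2. Tdrd5, a germ cell gene of piRNA biology, was at 53.2 FPKM in thymus (2040 reads) and 0.0537 FPKM in spleen (2 reads).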

How the data were processed

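Total RNA was sequenced from 1 thymus and 1 spleen sample. Trizol extraction, a DirectZol clean-up with DNase I and a Bioanalyser check preceded it, per the labels' protocols. How libraries were made, whether they keep strand, and which aligner and build were used is not given in the sources used here. The submitters' processing notes list DESeq2, with no version or role. Values deposited by the authors were FPKM for thymus and raw read counts for spleen. A second FPKM table with spleen, a group table deposited by the authors on another scale, was used only for an alternative. A further group table was not used.

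Whole reads were recovered from the thymus FPKM as multiples of what 1 read is worth (tolerance 0.0001 reads), and summed to 100% of the library total of 16648697. Gene lengths recovered with them equalled the mean transcript length of GENCODE M21 (GRCm38) within 1 base for 95.2% of 19298 genes with several transcripts. Spleen FPKM was computed from 16165617 deposited counts with those lengths. GENCODE M21 held 99.93% of the identifiers, 98.3% of these with identical coordinates.

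Genes at 1 FPKM or more in either library were tested, with 0.1 FPKM added and a 4-fold threshold. With 1 library per tissue no test was run. Folds are ratios without the added 0.1, with exact binomial (Clopper-Pearson) 95% intervals. A library with 0 reads was set to 3 reads, 0.180 reads per 1000000 in thymus and 0.186 in spleen, and the fold is then a lower bound. Intervals and floors cover counting error only, and reads without molecular identifiers are not independent molecules.

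Gene lists, members, named genes and the genes of other organs were chosen with earlier results of these data known. Named genes were list members, the 15 protein-coding genes with the largest ratio each way at 10 FPKM or more, the 10 with the highest level and the 10 with the largest change of rank. Not all are named, and some are not reported here. Ahsp, 1 of 20 erythroid genes, was not analysed here. The calling rule and the read recovery were tested on simulated data. Alternatives covered the added value, level, fold, scaling, lengths and genes used. Genes with near-identical copies, overlapping genes and antisense genes have uncertain reads. Software was scipy 1.17.1, pandas 2.3.3, numpy 2.4.6 and matplotlib 3.10.9 under Python 3.11.15.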

Additional observations from a re-analysis of the deposited data

How the results depend on the processing

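No paired analysis was possible because each tissue had 1 library, and no library could be left out. No ratio of the 3 marker genes changed direction, and medians of lists near 0 that did are given in the report. Thymus held 54.5% of all calls, but 49.6% at 5 FPKM or more and 40.3% (1083 against 1605) without genes that another organ held at 10-fold or more. Counts of genes called higher in thymus and in spleen (2043 and 1709) became 1001 and 950 with 1 FPKM added, 994 and 1010 at 5 FPKM or more, 3674 and 3145 at 2-fold, 1312 and 973 at 8-fold, and 6893 and 1054 on the values as deposited. As deposited, the spleen values follow another formula, and the median log2 ratio of all genes was 1.67. The spleen count was 1041 when the whole interval had to pass 4-fold and 729 over protein-coding genes. T lineage calls for thymus (37) became 60 at 2-fold, 19 at 8-fold and 72 as deposited, and those for spleen (11) became 25, 4 and 4. B lineage calls for spleen (59) became 39 as deposited, and those for thymus (3) became 5 at 2-fold and 7 as deposited. The proliferation call (1) became 25 at 2-fold, 0 at 8-fold and 52 as deposited. Stroma calls for thymus (33) became 53 as deposited, and those for spleen (14) became 23 at 2-fold and 9 as deposited. With genes left out that another organ held at 10-fold or more, an alternative chosen after seeing the data, thymus calls became 1083 and stroma calls for thymus 20. That rule kept 7 of 9 adipocyte genes, since the thymus library held a large share of their level. With 1 FPKM added, the log2 ratio was 8.06 for Rag1 and -4.68 for Ms4a1, and as deposited it was 3.99 for Cd3e and -3.41 for Ms4a1. Size factors, upper quartile scaling and totals without globin, immunoglobulin and mitochondrial genes put the median log2 ratio of all genes at 0.03, 0.06 and 0.07. Leaving out genes that separated the tables, also chosen after seeing the data, gave 2036 and 1421 calls. Leaving out Ccl21a, chosen likewise, gave 2043 and 1707.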

Other observations

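Several genes outside the lists were high in thymus, no other organ held them at a higher level, and they were chosen after their values were seen. Myb, a transcription factor of blood cell precursors, was at 309 FPKM in thymus and 24.5 FPKM in spleen. Spo11, the enzyme that cuts DNA in meiosis, was at 126 FPKM in thymus (3795 reads) and 4.49 FPKM in spleen (131 reads). Chrna9, a nicotinic receptor subunit, was at 110 FPKM in thymus (1314 reads) and 0.344 FPKM in spleen (4 reads). Il17rb, a receptor chain for interleukin 25, was at 25.7 against 1.35 FPKM. Genes of the mitochondrial genome took 4.02% of the thymus reads and 1.92% of the spleen reads.

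The hepatocyte genes that stood at 1876 FPKM in thymus summed to 11530 FPKM in the intestine library. They summed to 1757 and 1888 FPKM in the stomach and brain libraries, and to 583 FPKM in heart. Sums of like size need not rest on the same members: thymus stood at rank 2 of 19 for Alb, Mup3 and Mup20, and at rank 5 for Apoa1. The 10 lung epithelial genes summed to 3132 FPKM in the kidney library and 1510 FPKM in the liver library, beside 4826 FPKM in thymus. Which members made up the sums in kidney and liver was not examined. Scgb1a1 was among the 10 genes with the highest level in the thymus library, mitochondrial genes left out.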
